A study of Mus musculus with 2 samples.

Results

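Sphingosine-1-phosphate (S1P) is made, degraded, exported and sensed by a small set of proteins, and 7 of their genes were followed through the cells of the postischemic mouse kidney. These were the kinase genes Sphk1 and Sphk2, the lyase gene Sgpl1, the exporter gene Spns2 and the receptor genes S1pr1, S1pr2 and S1pr3. All 7 were found by symbol among the 32285 genes counted. The set was chosen by the UMI levels of these genes in tubule, endothelial and leukocyte classes of the same 2 libraries, which were known from earlier work on them, so the levels and ratios below are descriptions.

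The data are single-cell RNA-seq counts from kidneys of male C57BL/6 mice aged 9 weeks, taken 24 h after bilateral renal ischemia-reperfusion. The control mouse received saline and the other mouse JPI-289, an inhibitor of poly(ADP-ribose) polymerase, at 100 mg/kg into the peritoneal cavity just before reperfusion. Each condition is 1 library, no kidney without ischemia was analysed here, and the comparison therefore has no replicate check. Intervals of levels, shares and ratios below are exact 95% intervals that cover counting error only, and no p-value is given. The libraries held 38328760 (control) and 35548396 (JPI-289) unique molecular identifiers (UMIs), each of which stands for 1 captured RNA molecule. After empty droplets and cells with over 50% mitochondrial UMIs were set aside, 3745 control and 5045 JPI-289 cells remained, with a median of 2063 and 1866 UMIs. The libraries shared 23 cell barcodes. Cells were clustered and each cluster was named by marker genes. The 12 named classes were proximal tubule (PT), thick ascending limb (TAL), distal convoluted and connecting tubule (DCT-CNT), principal (CD-PC) and intercalated (CD-IC) cells of the collecting duct, endothelial cells (EC), stroma, podocytes, macrophages, neutrophils, lymphocytes and red blood cells, each written with the ending "-like". A level is the UMIs of a gene per 1000000 UMIs of that class and library (CPM), and a ratio is the log2 of the JPI-289 level over the control level.

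S1P arises when sphingosine, released from ceramide, is phosphorylated by sphingosine kinases. It is returned to sphingosine by phosphatases or broken down for good by S1P lyase. Exported S1P acts on G protein-coupled receptors, of which S1PR1 is known for keeping the endothelial barrier tight and for guiding lymphocytes out of lymphoid organs. In the kidney, S1P signaling is known from studies of ischemic injury and of fibrosis.

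The genes lie on the mm10 (GRCm38) build, the build of the counts, and all 7 are annotated as protein coding. Sphk1 spans chr11:116530925-116536674 on the plus strand, Sphk2 chr7:45709467-45718002 on the minus strand, Sgpl1 chr10:61098642-61147703 on the minus strand and Spns2 chr11:72451638-72489904 on the minus strand. S1pr1 spans chr3:115710433-115715072 on the minus strand, S1pr2 chr9:20962361-20976781 on the minus strand and S1pr3 chr13:51408639-51422797 on the plus strand. Genes on the opposite strand overlap Sphk1 (Gm29292, 27 and 18 UMIs over all barcodes of the control and JPI-289 libraries), Sphk2 (Dbp and the abundant ribosomal protein gene Rpl18), Spns2 (Mybbp1a) and S1pr3 (Gm32834, 1 and 0 UMIs). Whether strand was used in counting is not given in the sources used here, so among these Sphk2 and Spns2 are the members whose reads could be mixed with a well-covered neighbour. On the same strand, Gm44308 overlaps Sgpl1. It was not among the genes counted, so its part in the Sgpl1 reads is not known.

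The promoters of Sphk1 and Sgpl1 are shown because these were the members at least 2-fold higher with JPI-289 in any class. RefSeq windows from 250 bases before to 50 bases after a transcript start were at hand for 6 of the 7 members (S1pr1 had none), 11 windows in all, on GRCm38.p6. Both strands were searched for TGANTCA (AP-1), TGACNNNGC (NRF2) and ACGTG (HIF), sites of factors known from stress, oxidant and hypoxia responses. Of Sphk1's 5 windows, 2 overlapping ones held the same TGANTCA match, the only match of this motif among the 11 windows. An NRF2 match overlapped it in those windows, and the other Sphk1 windows with a match held ACGTG read on both strands of one CACGTG. The Sgpl1 window held 1 ACGTG match. In the sequences below, written 5′ to 3′ on the strand of the gene, capitals mark the AP-1 and HIF matches.
Sphk1 chr11:116531587-116531886 (+): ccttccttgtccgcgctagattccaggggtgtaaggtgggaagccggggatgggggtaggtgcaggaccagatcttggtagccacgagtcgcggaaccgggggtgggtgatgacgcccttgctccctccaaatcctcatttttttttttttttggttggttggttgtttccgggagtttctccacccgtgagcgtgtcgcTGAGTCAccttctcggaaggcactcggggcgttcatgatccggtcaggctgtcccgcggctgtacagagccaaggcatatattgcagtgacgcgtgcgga
Sphk1 chr11:116532201-116532500 (+): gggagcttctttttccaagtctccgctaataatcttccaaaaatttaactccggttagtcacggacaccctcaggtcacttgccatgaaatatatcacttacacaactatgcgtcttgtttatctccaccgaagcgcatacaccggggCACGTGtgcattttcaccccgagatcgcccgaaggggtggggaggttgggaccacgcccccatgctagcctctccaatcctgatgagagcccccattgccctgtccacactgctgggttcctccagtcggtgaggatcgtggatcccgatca
Sgpl1 chr10:61147635-61147934 (-): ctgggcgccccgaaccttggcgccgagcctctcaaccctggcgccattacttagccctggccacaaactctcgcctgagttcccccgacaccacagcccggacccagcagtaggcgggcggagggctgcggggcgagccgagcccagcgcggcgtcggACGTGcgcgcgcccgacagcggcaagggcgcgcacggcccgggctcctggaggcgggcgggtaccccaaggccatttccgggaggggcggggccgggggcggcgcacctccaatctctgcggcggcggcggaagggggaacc
The AP-1 match began 50 bases before the start in the first of these, and the ACGTG matches began 102 and 92 bases before the start in the Sphk1 and Sgpl1 windows. Of the 32851 mouse windows searched, 7.81% held TGANTCA, 12.4% TGACNNNGC and 19.6% ACGTG. A match is only a run of letters, and no binding was measured.

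Sphk1, whose product is the mainly cytoplasmic sphingosine kinase that is known to be induced by growth factors and cytokines, stood at 5.55 CPM (45 UMIs, interval 4.04 to 7.42) in the 1790 control PT-like cells. In the 1650 JPI-289 PT-like cells it stood at 71.0 CPM (521 UMIs, interval 65.1 to 77.4). The log2 ratio was 3.66 (3.24 to 4.15), and the intervals of the levels did not overlap. The median log2 ratio of the 11307 genes with at least 20 UMIs in PT-like cells was -0.19, and 28 of them had a larger ratio than Sphk1. By cell, the share of PT-like cells with a Sphk1 UMI was 2.29% in the control and 19.3% with JPI-289. To set the libraries at equal depth, cells were thinned to 1000 UMIs each and shallower cells dropped (451 and 511), and the shares were then 0.149% (2 of 1339 cells) and 7.90% (90 of 1139 cells).

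Free RNA in the droplets held Sphk1 too. Barcodes of 100 to 300 UMIs, mostly empty droplets, had it at 12.9 CPM in the control against 58.8 CPM in the JPI-289 library. By the markers of other classes, free RNA made up an estimated 11.2% (control) and 7.24% (JPI-289) of PT-like UMIs, which would give 1.44 and 4.26 CPM of Sphk1. Neutrophil-like cells served as the background class: they held Sphk1 at 4.60 CPM (2 UMIs) in the control against 10.5 CPM (17 UMIs) in the JPI-289 library, with a UMI in 1.02% and 2.60% of cells. Their median depth was 1973 and 2035.5 UMIs, and that of PT-like cells 2262.5 and 1840.5. Red blood cell-like cells held 0 and 2 UMIs. The control PT-like share of 2.29% lay within the interval of the neutrophil-like share (0.124% to 3.64%, from 2 UMIs), although the control level of 5.55 CPM was above what the free RNA estimate would give. How much of that control level is background was not settled, so the size of the ratio is less certain than its counting interval. With free RNA subtracted it was 3.83 or 3.94, by the 2 free RNA profiles. The JPI-289 share of 19.3% lay above that of its own neutrophil-like cells (interval 1.52% to 4.13%). The background class was not set in the plan and was among the classes lowest in Sphk1 in these same libraries. This order is therefore a description and no test.

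**Figure D1:**
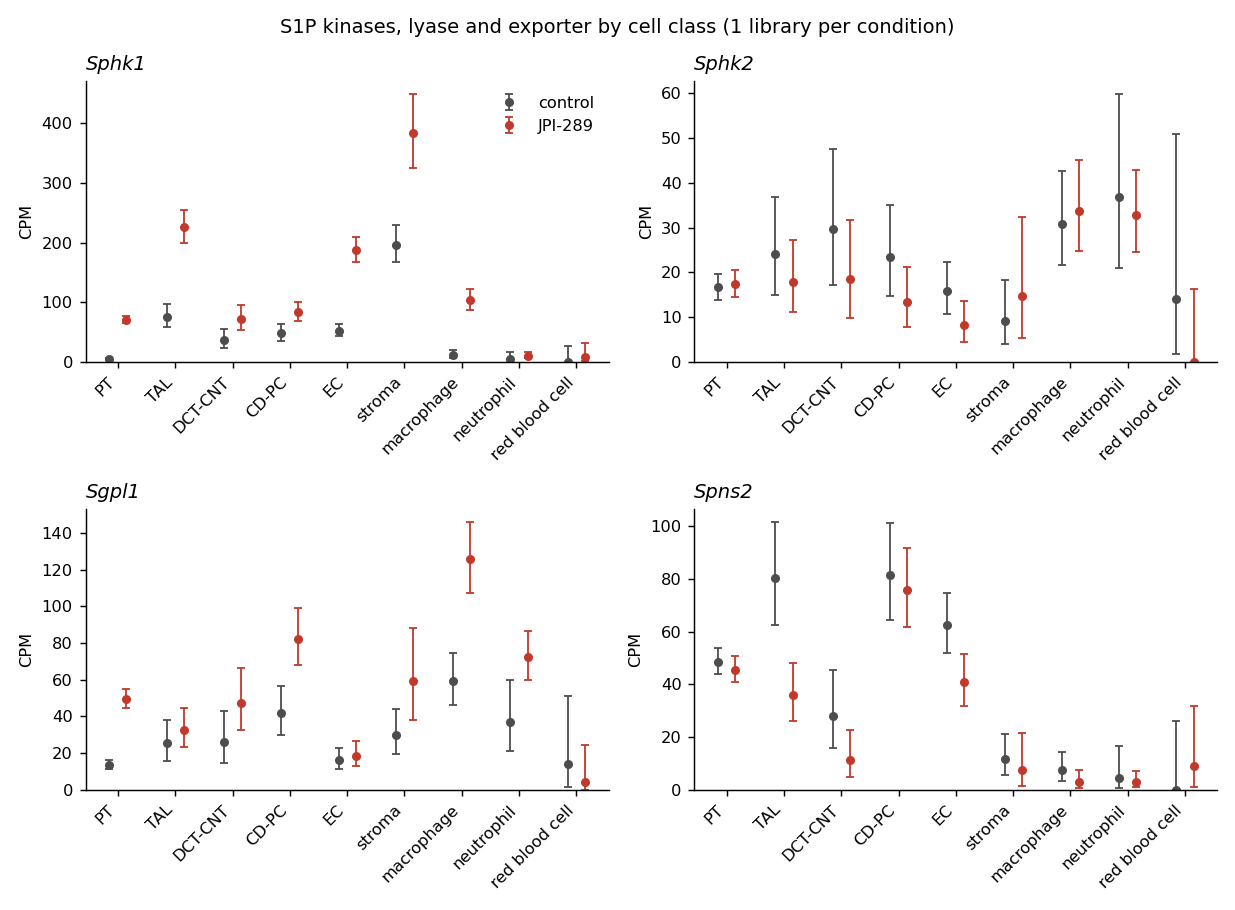
Levels of Sphk1, Sphk2, Sgpl1 and Spns2 (CPM, separate linear axes) in 9 cell classes of the control (grey) and JPI-289 (red) libraries, with exact 95% Poisson intervals; each point is 1 library. Sphk1 was highest in stroma-like cells in both libraries, and its PT-like level was 5.55 in the control against 71.0 in the JPI-289 library.

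The PT-like cells of the 2 libraries, clustered together without batch correction, fell into different clusters. The part of that choice in the split was not tested. Clusters 1, 5 and 14 (947, 591 and 229 cells), led by Pck1, Slc22a6 and Slc5a12, held most control cells. Clusters 0, 9 and 11 (1007, 340 and 294 cells), in which the injured PT marker list scored highest, held most JPI-289 cells, and the library and the cluster cannot be told apart there. Sphk1 stood at 3.88, 5.59 and 10.6 CPM in the control clusters and at 71.2, 58.4 and 83.4 CPM in the JPI-289 clusters. Every JPI-289 cluster lay above every control cluster, while the control clusters had overlapping intervals. Havcr1, the kidney injury molecule, stood at 37.5, 158 and 63.6 CPM in the control clusters and at 206, 300.1 and 840.0 CPM in the JPI-289 clusters. The control cluster with the most Havcr1 (158 CPM, interval 147 to 169) had Sphk1 at 5.59 CPM (3.71 to 8.08). The JPI-289 cluster with the least Havcr1 (206 CPM, 188 to 225) had Sphk1 at 71.2 CPM (60.8 to 82.9). Havcr1 is only 1 of the 6 injured PT markers. The score of the whole list was 0.029, 0.296 and 0.629 in clusters 1, 5 and 14. In clusters 0, 9 and 11 it was 2.01, 1.72 and 2.33. Within the JPI-289 library, thinned PT-like cells with a Havcr1 UMI had a Sphk1 UMI in 6.80% (20 of 294 cells, interval 4.20% to 10.3%) and those without in 8.28% (70 of 845 cells, 6.51% to 10.4%). In the control a Sphk1 UMI was seen in 1 of 84 such cells with a Havcr1 UMI (1.19%, interval 0.0301% to 6.46%) and 1 of 1255 without (0.0797%, 0.0020% to 0.443%). Of the 1650 JPI-289 PT-like cells, 1641 lay in clusters led by the injured PT list. The split by a Havcr1 UMI therefore cannot part injured from other cells in that library. The summed level of the 6 injured PT markers in PT-like cells was 770.3 CPM in the control against 7925 CPM in the JPI-289 library, with 5 of 6 higher in the latter. Their part in the Sphk1 difference was not tested.

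**Figure D2:**
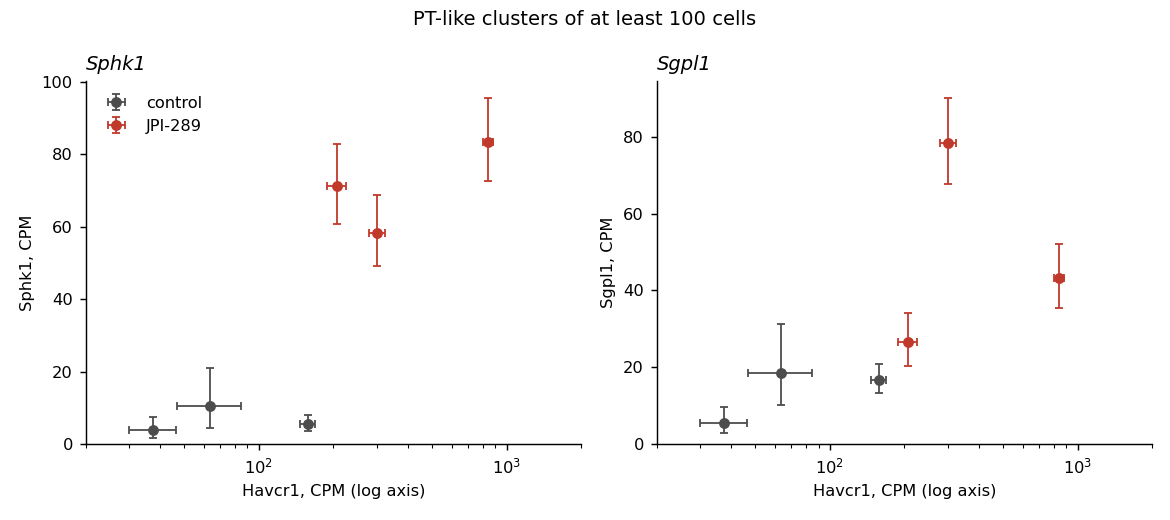
Sphk1 (left) and Sgpl1 (right) against Havcr1 in PT-like clusters of at least 100 cells, all in CPM, with Havcr1 on a log axis; each point is 1 cluster in 1 library and the bars are exact 95% Poisson intervals. The 3 JPI-289 clusters (red) lie between 58.4 and 83.4 for Sphk1 and the 3 control clusters (grey) between 3.88 and 10.6.

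Sphk1 was also higher with JPI-289 in several classes outside the PT, but a higher level was not seen in all cells. CD-IC-like cells had 34.6 CPM (7 UMIs) and 21.8 CPM (4 UMIs), too few for a ratio. Their DCT-CNT markers summed to 12042 and 1934 CPM (1 of 7 higher) and their own 6 markers to 9614 and 5841 CPM (0 of 6 higher). The part of these lists in the CD-IC-like levels was not tested. Cluster 8, an unnamed cluster led by Snhg11, Neat1 and Gm26917, had 79.9 CPM (9 UMIs in 51 control cells, interval 36.5 to 152) and 39.2 CPM (35 UMIs in 299 JPI-289 cells, interval 27.3 to 54.6). Both pairs had overlapping intervals and are not read as differences. In the 498 control and 569 JPI-289 EC-like cells Sphk1 stood at 52.4 CPM (103 UMIs) and 188 CPM (323 UMIs), a log2 ratio of 1.84 (1.52 to 2.18). Thinned to 1000 UMIs, 3.06% of control and 17.4% of JPI-289 EC-like cells had a UMI. Cluster 4, which both libraries shared, had 90.3 and 226 CPM. Cluster 13, with 202 control but 34 JPI-289 cells, had 22.2 and 201 CPM, and cluster 17, nearly all from the JPI-289 library, had 147 CPM. In each of the EC-like clusters the JPI-289 level was above both control levels. Among markers of other cells, red blood cell genes summed to 108 CPM in control and 1351 CPM in JPI-289 EC-like cells (all 5 genes higher). Injured PT genes summed to 364 and 908 CPM (all 6 higher), and red blood cell-like cells themselves had 0 and 2 Sphk1 UMIs. TAL markers summed to 83.0 and 220 CPM (2 of 6 higher) and DCT-CNT markers to 197 and 242 CPM (1 of 7 higher). Among the sums that fell were those of stroma (292 and 65.8 CPM, 2 of 10 higher), PT (1609 and 952 CPM, 1 of 13 higher) and podocyte markers (875 and 510 CPM, 3 of 6 higher). The 10 EC markers themselves summed to 14748 and 11585 CPM (3 of 10 higher). The part of these lists in the EC-like ratio was not tested. Free RNA was estimated at 13.9% of control and 38.4% of JPI-289 EC-like UMIs, which would give 1.79 and 22.6 CPM of Sphk1.

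Macrophage-like cells had Sphk1 at 11.7 CPM (14 UMIs, 201 cells) in the control against 104 CPM (142 UMIs, 301 cells) with JPI-289, giving a log2 ratio of 3.11 (2.36 to 4.07). The cluster led by Cd74 and C1qb, genes of antigen presentation and of complement, went from 10.9 to 158 CPM across the libraries. The cluster led by Lyz2 and Chil3 went from 12.3 to 71.2 CPM. Among control cells these clusters did not differ beyond counting error, and with JPI-289 their intervals (126 to 196 and 54.4 to 91.7 CPM) did not overlap. Neutrophil-like cells, the other myeloid class, had the low levels given above. In macrophage-like cells the 8 macrophage markers summed to 13788 CPM in the control and 4506 CPM with JPI-289 (0 of 8 higher), and the 5 red blood cell markers to 60.1 and 1450 CPM (all 5 higher). Their part in the Sphk1 and Sgpl1 values of this class was not tested, and red blood cell-like cells held 0 and 2 UMIs of Sphk1 and 2 and 1 of Sgpl1.

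TAL-like cells had Sphk1 at 75.9 CPM (66 UMIs) and 226 CPM (277 UMIs), a log2 ratio of 1.57 (1.18 to 1.99). The control TAL-like cells also held markers of the DCT-CNT at a summed 8234 CPM against 798 CPM in the JPI-289 library. By gene, however, 5 of these 7 markers were higher in the JPI-289 library, so the sum does not speak for the whole list. Red blood cell markers in TAL-like cells summed to 1342 CPM in the control and 96.3 CPM with JPI-289 (0 of 5 higher). The part of either list in the TAL-like ratio was not tested. DCT-CNT-like cells themselves held Sphk1 at 36.7 and 72.9 CPM, a log2 ratio of 0.97 (0.23 to 1.80). The DCT-CNT value turned to -1.06 at a clustering resolution of 0.5 and fell to 0.12 with cells of at most 20% mitochondrial UMIs. CD-PC-like cells had 47.8 and 83.2 CPM, a log2 ratio of 0.79 (0.29 to 1.32), between cells whose median depth was 9235.5 UMIs in the control (80 cells) and 1538.5 UMIs in the JPI-289 library (382 cells). In CD-PC-like cells their own 7 markers summed to 12269 and 7378 CPM (0 of 7 higher with JPI-289) and the 6 neutrophil markers to 2.04 and 511 CPM (all 6 higher), and the part of either in the ratios of this class was not tested. Neutrophil-like cells held Sphk1 at 4.60 and 10.5 CPM and Sgpl1 at 36.8 and 72.4 CPM. Neither the DCT-CNT-like nor the CD-PC-like ratio reached 2-fold.

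Stroma-like cells, a cluster led by Ren1, Tagln and Acta2, had the highest Sphk1 level of any named class in both libraries. It stood at 197 CPM (170 UMIs in 159 cells, interval 168 to 229) in the control against 383 CPM (155 UMIs in 101 cells, interval 325 to 448) in the JPI-289 library. Its interval was apart from that of TAL-like cells, the next class, in each library. The log2 ratio was 0.96 (0.64 to 1.28). The 10 stroma markers summed to 18132 CPM in control and 9025 CPM in JPI-289 stroma-like cells (1 of 10 higher), the 6 neutrophil markers to 9.26 and 591 CPM (5 of 6 higher) and the 5 red blood cell markers to 86.9 and 408 CPM (all 5 higher). The 10 EC markers summed to 1333 and 1001 CPM there (5 of 10 higher). The part of these lists in the values of the members in this class, receptors included, was not tested. In the control, EC-like, CD-PC-like, DCT-CNT-like and CD-IC-like cells followed TAL-like cells and each overlapped its neighbour in the order. In the JPI-289 library, TAL-like and EC-like cells overlapped each other and EC-like cells stood apart from macrophage-like cells, after which came CD-PC-like, DCT-CNT-like and PT-like cells with overlapping intervals. Of the 12 classes, PT-like cells were the 9th in control order and the 7th in JPI-289 order. CD-IC-like cells (7 and 4 UMIs), podocyte-like cells (1 and 2) and lymphocyte-like cells (0 and 2) had too few Sphk1 UMIs for a ratio.

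The background for these counts is the share of all genes that passed the same line, at least 20 UMIs over both libraries and at least 2-fold apart. The members with enough UMIs were 4 in PT-like, TAL-like, DCT-CNT-like and macrophage-like cells and 5 in EC-like cells. With so few members, a count of none is not read as a result about them. Sphk1 and Sgpl1 were at least 2-fold higher in JPI-289 PT-like cells, where 9.12% of genes were and 23.6% were at least 2-fold lower, none of the members among the latter. In EC-like cells Sphk1 was the member at least 2-fold higher, against 5.19% of genes, and no member was at least 2-fold lower, against 18.6% of genes. In macrophage-like cells Sphk1 and Sgpl1 were at least 2-fold higher, against 8.93% of genes. In TAL-like cells Sphk1 was at least 2-fold higher (8.62% of genes) and Spns2 at least 2-fold lower (10.8% of genes). In DCT-CNT-like cells Spns2 was at least 2-fold lower (9.58% of genes). Short of 2-fold, with a log2 ratio of at least 0.9 in size, were Sphk1 in DCT-CNT-like (0.97) and stroma-like cells (0.96), Sgpl1 in stroma-like (0.98), CD-PC-like (0.97), neutrophil-like (0.94) and CD-IC-like cells (0.91), and in the other direction Sphk2 in EC-like cells (-0.93). The CD-IC-like value came from 8 and 14 UMIs, and its interval (-0.41 to 2.41) held 0.

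Sphk2, the sphingosine kinase found in the nucleus and mitochondria as well, reached 2-fold in no class with at least 20 UMIs. In PT-like cells it stood at 16.6 CPM (135 UMIs) in the control against 17.3 CPM (127 UMIs) with JPI-289, giving a log2 ratio of 0.058 (-0.30 to 0.42). The interval of this ratio and that of Sphk1 in the same cells did not overlap. In EC-like cells it stood at 15.8 CPM (31 UMIs) and 8.15 CPM (14 UMIs), a log2 ratio of -0.93 (-1.98 to 0.00050) whose interval just reached 0. Macrophage-like (30.9 and 33.8 CPM) and neutrophil-like cells (36.8 and 32.8 CPM) had log2 ratios of 0.13 and -0.20, and both intervals held 0. TAL-like, DCT-CNT-like and CD-PC-like cells had log2 ratios of -0.43, -0.66 and -0.80, each with an interval that held 0.

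Sgpl1, whose product cleaves S1P irreversibly, was higher in several JPI-289 classes. In PT-like cells it stood at 13.7 CPM (111 UMIs) in the control against 49.6 CPM (364 UMIs) with JPI-289, giving a log2 ratio of 1.85 (1.55 to 2.18) that 221 of the 11307 genes exceeded. Among PT-like clusters the control levels were 5.60, 16.8 and 18.6 CPM in clusters 1, 5 and 14, and the JPI-289 levels were 26.6, 78.3 and 43.1 CPM in clusters 0, 9 and 11. The highest was cluster 9, led by the fibrinogen chain genes Fgg, Fgb and Fga, with an interval (67.6 to 90.1 CPM) apart from those of the others. By value Sphk1 was lowest of the 3 in that cluster, with an interval (49.2 to 68.7 CPM) that overlapped that of cluster 0 but not that of cluster 11 (72.6 to 95.5 CPM). The lowest JPI-289 cluster for Sgpl1, cluster 0 (20.4 to 34.1 CPM), overlapped control cluster 14 (10.1 to 31.1 CPM). The share of PT-like cells with a Sgpl1 UMI was 5.42% in the control against 14.7% with JPI-289, and 1.05% against 4.65% after thinning. Sgpl1 was also in the free RNA, at 17.2 and 60.1 CPM in barcodes of 100 to 300 UMIs, which would give 1.92 and 4.36 CPM in PT-like cells. In red blood cell-like cells, taken without a prior plan as the background class for Sgpl1, the share was 2.63% and 0.813% (median depth 1519.5 and 1531 UMIs). After thinning it was 0 of 56 and 0 of 93 cells, with upper bounds of 6.38% and 3.89%. With so few cells these bounds are too wide to tell the thinned control PT-like share from background. The interval of the thinned JPI-289 PT-like share (3.50% to 6.04%) overlapped its bound too.

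Macrophage-like cells had the highest Sgpl1 level in both libraries, 59.3 CPM (71 UMIs) in the control against 126 CPM (171 UMIs) with JPI-289, giving a log2 ratio of 1.08 (0.68 to 1.504). In the control its interval overlapped that of podocyte-like cells, the next class, and with JPI-289 it stood apart from CD-PC-like cells. The 2 macrophage-like clusters had close levels, 54.7 and 63.1 CPM in the control against 131 and 122 CPM in the JPI-289 library. Neutrophil-like cells had 36.8 CPM (16 UMIs) and 72.4 CPM (117 UMIs), a log2 ratio of 0.94 (0.22 to 1.83), so Sgpl1, unlike Sphk1, was well covered in them. CD-PC-like cells had 41.7 and 82.4 CPM (0.97, interval 0.45 to 1.54) and stroma-like cells 30.1 and 59.3 CPM (0.98, interval 0.11 to 1.84). EC-like cells had 32 UMIs in each library, 16.3 and 18.6 CPM, a log2 ratio of 0.19 (-0.55 to 0.94), with an interval that held 0. Free RNA alone would give 2.39 to 3.20 CPM of Sgpl1 in control and 17.2 to 23.1 CPM in JPI-289 EC-like cells, so the JPI-289 level cannot be told from free RNA, and with it subtracted the ratio was -2.83 or -5.30.

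**Figure D3:**
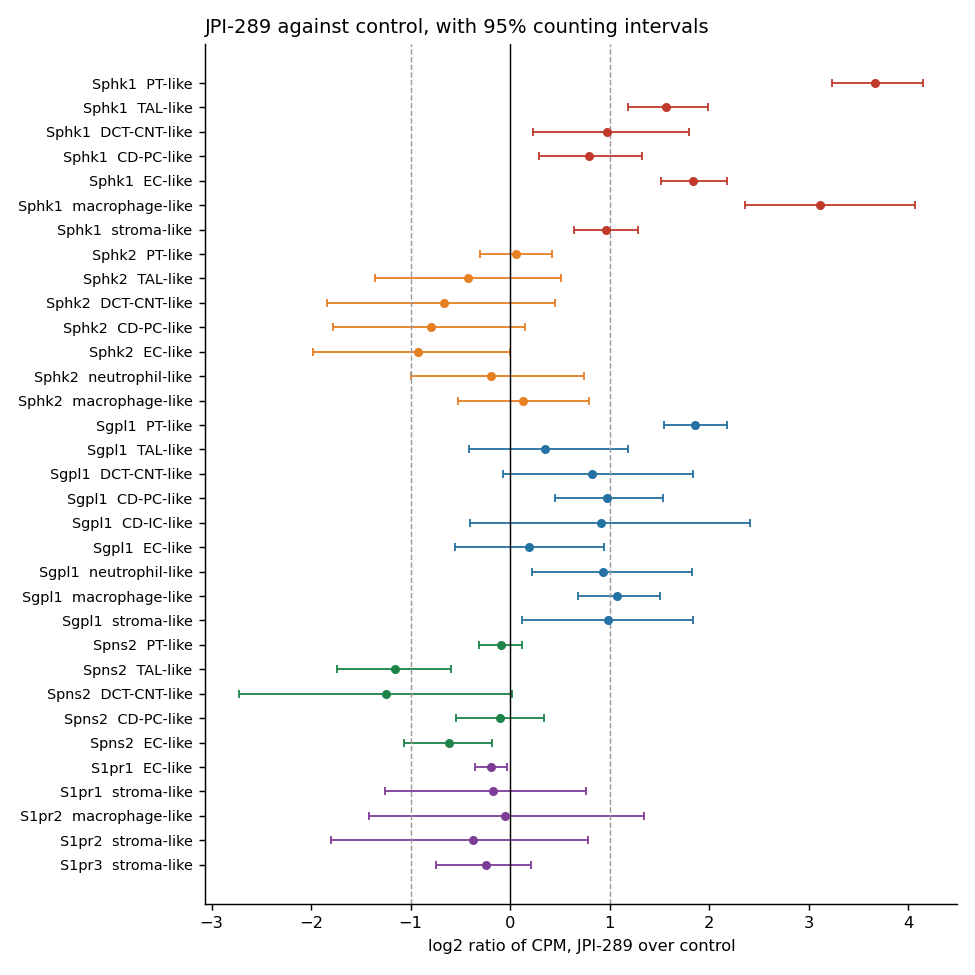
Log2 ratio of CPM, JPI-289 over control, for each member and class with at least 20 UMIs over both libraries (lymphocyte-like cells, with 6 control cells, left out); bars are exact 95% counting intervals and dashed lines mark 2-fold. The Sphk1 ratios run from 0.79 to 3.66, all with intervals above 0 (the DCT-CNT-like ratio turned to -1.06 at a clustering resolution of 0.5), and the Sphk2 intervals all reach or hold 0.

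Spns2, the exporter that carries S1P out of endothelial and other cells, was found in tubule, endothelial and podocyte-like classes and was low in leukocytes. Podocyte-like cells had the highest level of a named class in the control, 92.7 CPM (8 UMIs, with an interval that overlapped that of the next class), and 24.2 CPM (2 UMIs) with JPI-289, too few for a ratio. In PT-like cells it stood at 48.7 CPM (395 UMIs) in the control against 45.5 CPM (334 UMIs) with JPI-289, giving a log2 ratio of -0.096 (-0.31 to 0.12). In CD-PC-like cells the levels were 81.4 and 75.7 CPM, a log2 ratio of -0.11 (-0.54 to 0.34). EC-like cells had 62.6 CPM (123 UMIs) and 40.8 CPM (70 UMIs), a log2 ratio of -0.61 (-1.06 to -0.18). In the shared EC-like cluster 4 the levels were 46.9 and 37.2 CPM with overlapping intervals, and in cluster 13 they were 75.8 and 55.5 CPM.

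TAL-like cells had Spns2 at 80.5 CPM (70 UMIs) in the control against 35.9 CPM (44 UMIs) with JPI-289, giving a log2 ratio of -1.16 (-1.74 to -0.60). The DCT-CNT and red blood cell markers in the control TAL-like cells, given above, stand beside this value too and their part in it was not tested. DCT-CNT-like cells had Spns2 at 27.9 CPM (16 UMIs) and 11.4 CPM (8 UMIs), a log2 ratio of -1.25 (-2.72 to 0.019). In DCT-CNT-like cells the 6 TAL markers summed to 1098 and 267 CPM (1 of 6 higher). The 7 DCT-CNT markers summed to 14690 and 22555 CPM (5 of 7 higher). The part of either list in the ratios of this class was not tested. Other processing took the ratios to -0.80 in TAL-like and -0.39 in DCT-CNT-like cells, short of 2-fold. Thinned TAL-like cells had a Spns2 UMI in 3.87% of control and 5.26% of JPI-289 cells, which does not follow the order of the levels. Macrophage-like cells had 9 and 4 UMIs, neutrophil-like cells 2 and 5, and lymphocyte-like cells 0 and 1.

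Each receptor was read mainly in 1 or 2 classes. S1pr1 stood at 367 CPM (720 UMIs, interval 340 to 394) in control and 321 CPM (551 UMIs, interval 295 to 349) in JPI-289 EC-like cells. The log2 ratio was -0.19 (-0.35 to -0.030), next to a median of -0.18 over the 9720 genes in these cells. A UMI was seen in 44.0% and 44.3% of EC-like cells, and in 27.2% and 25.1% after thinning. Among EC-like clusters S1pr1 ranged from 284 CPM (cluster 13, JPI-289) to 412 CPM (cluster 4, control), and every cluster held it. Stroma-like cells had 37.1 CPM (32 UMIs in 9 of 159 cells) and 32.1 CPM (13 UMIs in 6 of 101 cells). The 10 EC markers summed to 1333 and 1001 CPM in stroma-like cells, and their part in this S1pr1 level was not tested. In PT-like cells 9 and 6 S1pr1 UMIs were found, 1.11 and 0.818 CPM. Neutrophil-like cells had 2 and 0 UMIs, where a count of 0 allows up to 1.86 CPM.

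Lymphocyte-like cells were the other S1pr1 class. In the JPI-289 library 98 such cells had 45 UMIs, 197 CPM (143 to 263), below the EC-like level of that library, and 29.6% of them had a UMI. The control library had 6 such cells with 1 UMI, so no ratio is given.

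S1pr3, a receptor known in smooth muscle and fibroblasts, was found in stroma-like cells at 156 CPM (135 UMIs, interval 131 to 185) in the control against 131 CPM (53 UMIs, interval 98.1 to 171) in the JPI-289 library. The log2 ratio was -0.25 (-0.74 to 0.21), and a UMI was seen in 27.7% of cells in each library. Elsewhere at most 6 UMIs were found in a class. EC-like cells had 6 in the control against 0 in the JPI-289 library, where 0 allows up to 1.75 CPM. Summed over all barcodes, S1pr3 went from 225 to 91 UMIs, a log2 ratio of -1.19, whereas the stroma-like cells themselves numbered 159 and 101. Fewer cells of this class and less RNA per cell cannot be told apart in such a sum.

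S1pr2 was scarce. Stroma-like cells had 26.6 CPM (23 UMIs) and 19.8 CPM (8 UMIs), a log2 ratio of -0.37 (-1.80 to 0.78). Macrophage-like cells had 8.35 CPM (10 UMIs) and 8.09 CPM (11 UMIs), a log2 ratio of -0.053 (-1.42 to 1.35). EC-like cells had 6 and 3 UMIs and PT-like cells 3 and 4. The remaining family receptors, which are no members, were counted for comparison. S1pr4, a receptor of blood cells, had 4 and 38 UMIs in neutrophil-like cells, or 9.20 and 23.5 CPM. The log2 ratio was 1.20 (-0.12 to 3.30), with an interval that held 0. The JPI-289 lymphocyte-like cells had 23 UMIs of S1pr4, and S1pr5 had 3 and 1 UMIs over all barcodes.

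**Figure D4:**
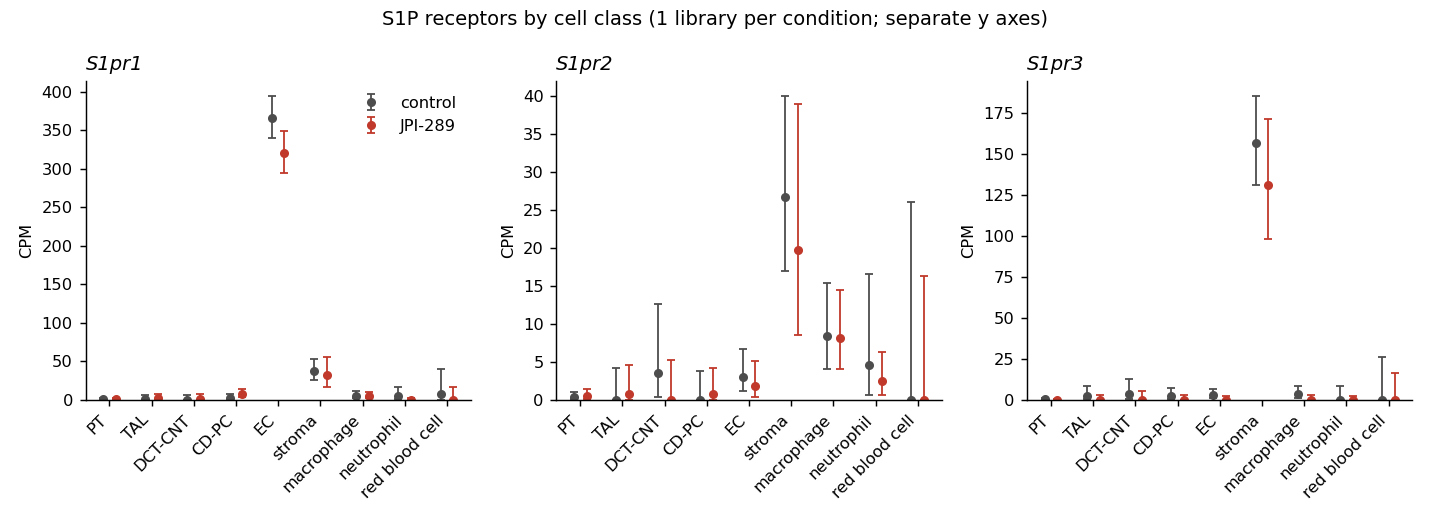
Levels of S1pr1, S1pr2 and S1pr3 (CPM, separate linear axes) in 9 cell classes of the control (grey) and JPI-289 (red) libraries with exact 95% Poisson intervals. S1pr1 stands at 367 and 321 in EC-like cells and S1pr3 at 156 and 131 in stroma-like cells, with the other drawn classes near 0 on those axes apart from stroma for S1pr1. Lymphocyte-like cells (S1pr1 at 197 CPM in the JPI-289 library), CD-IC-like and podocyte-like cells are left out.

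Over all barcodes, cells or not, Sphk1 had 791 UMIs in the control against 2741 in the JPI-289 library (log2 ratio 1.90) and Sgpl1 had 753 and 2023 (1.53). Sphk2 had 559 and 502 (-0.046), Spns2 1809 and 1382 (-0.28), S1pr1 914 and 757 (-0.16) and S1pr2 71 and 47 (-0.48). These sums do not depend on how cells were called or named, and in them too Sphk1 and Sgpl1 were higher in the JPI-289 library.

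Each member with at least 100 UMIs was set beside the genes whose levels followed it most closely over the 23 class-by-library points with at least 20 cells, by Pearson's r of log2(CPM + 10) over 11437 genes. The points share 2 libraries and their free RNA, so r is only a description. S1pr3 was closest to Pdgfra (0.98), Ptgis (0.98) and Lama2 (0.98), genes of mesenchymal cells. Pdgfra was itself a stroma marker used to name clusters, and S1pr3 was read mainly in stroma-like cells. A high r with genes confined to that class was therefore set in advance. S1pr1 was closest to Gimap6 (0.97), Gimap5 (0.95) and Grap (0.95). Spns2 was closest to Atp9a (0.87), Sphk1 to Naf1 (0.85), Socs2 (0.85) and Tm2d3 (0.84), Sgpl1 to Brpf1 (0.84) and Sphk2 to Ap5s1 (0.83).

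A list of 45 other sphingolipid genes, for ceramide synthesis and turnover, S1P phosphatases, carriers, remaining receptors and the step after the lyase, was laid beside the members. In PT-like cells 33 of the 45 had at least 20 UMIs, 20 with a higher and 13 with a lower JPI-289 level. Of the 33, 4 were at least 2-fold higher and 5 at least 2-fold lower, where 9.12% and 23.6% of all genes were. Their median log2 ratio was 0.25 (-0.22 to 0.46), and the interval held the -0.19 of all genes. Taken from the ordered ratios of the 33 genes, this interval covers the spread between genes and not counting error. Apom, whose product is an apolipoprotein that carries S1P in plasma, had 27.2 and 72.1 CPM (log2 ratio 1.40, interval 1.18 to 1.64). Plpp2, a lipid phosphate phosphatase, had 56.7 and 139 CPM (1.29), and Mfsd2a, a lysolipid transporter known to release S1P at the blood-brain barrier, had 2.71 and 6.54 CPM (1.25).

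Lower in JPI-289 PT-like cells were Asah2, the neutral ceramidase that frees sphingosine, at 12.4 and 3.41 CPM (log2 ratio -1.85), the lipid exporter Abca1 at 14.7 and 4.498 CPM (-1.69), and the sphingomyelinase gene Smpd2 at 45.7 and 16.1 CPM (-1.503). Sgpp1, a phosphatase that acts on S1P inside the cell, had 58.2 and 35.6 CPM (-0.71, interval -0.93 to -0.49). The genes with most UMIs differed less. Abcg2 had 450.3 and 337 CPM (-0.42), Sptlc2, a subunit of the enzyme that starts sphingolipid synthesis, 115 and 173 CPM (0.59), and the desaturase Degs1 123 and 116 CPM (-0.083).

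In EC-like cells 33 of the 45 had enough UMIs, 14 higher and 19 lower. Their median log2 ratio was -0.18 (-0.62 to 0.16, again the spread between genes), close to that of all genes. Of the 33, 2 were at least 2-fold higher and 3 at least 2-fold lower, where 5.19% and 18.6% of all genes were. Cers6, a ceramide synthase, had 4.07 and 15.7 CPM (log2 ratio 1.89, interval 0.77 to 3.30) and Sgpp1 34.6 and 87.4 CPM (1.33, interval 0.91 to 1.77), so Sgpp1 lay on opposite sides of 0 in PT-like and EC-like cells. S1pr4 (30 and 6 UMIs, -2.04), Abca1 (-1.99) and Asah2 (-1.73) were lower. The lipid phosphate phosphatases Plpp1 (2507 and 2071 CPM, -0.28) and Plpp3 (1009 and 596 CPM, -0.76) and Degs1 (315 and 479 CPM, 0.60) had most UMIs.

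**Figure D5:**
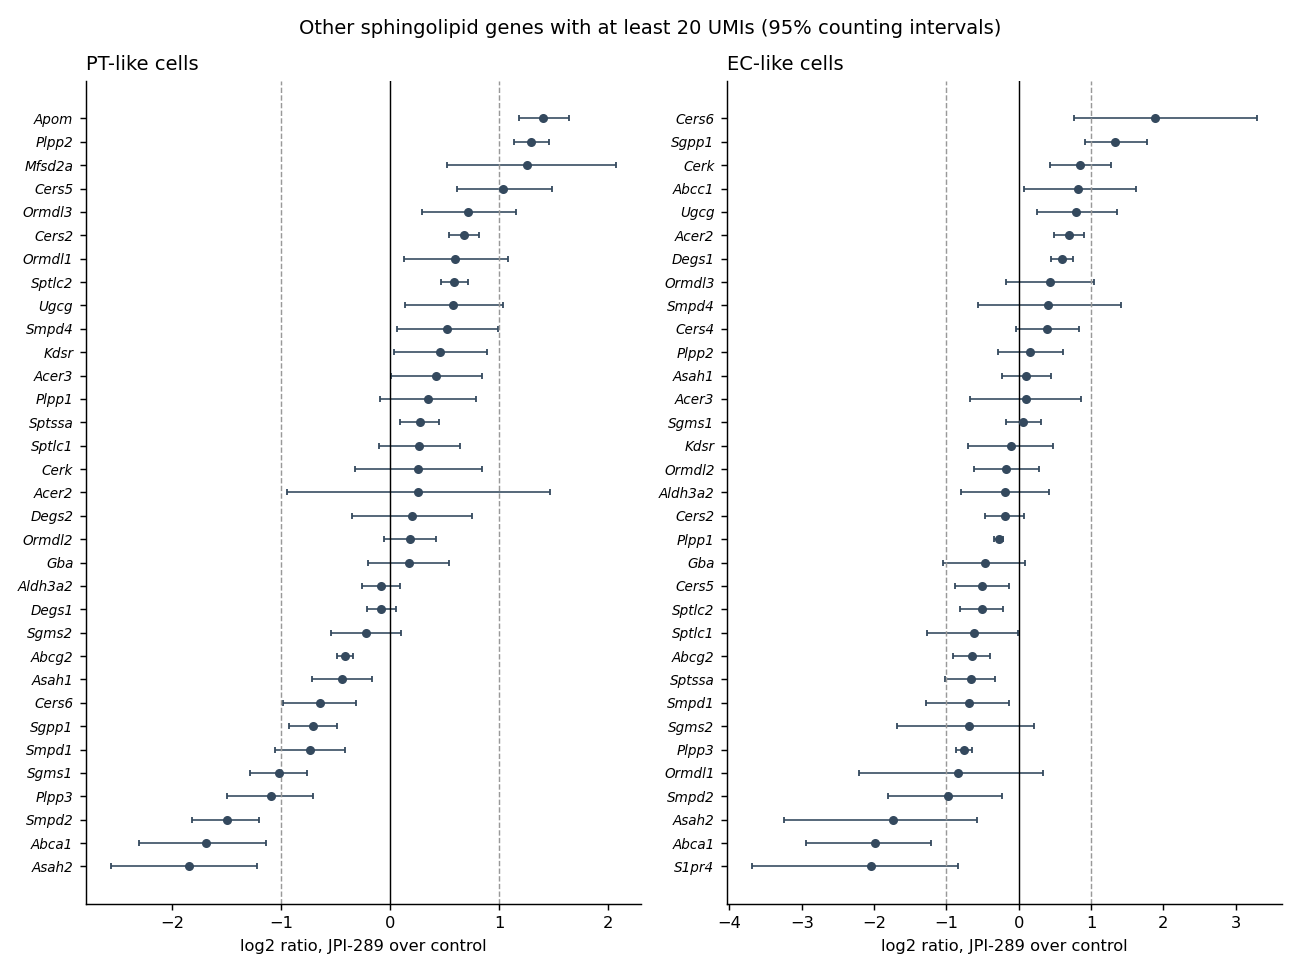
Log2 ratio of CPM, JPI-289 over control, for the 33 listed sphingolipid genes with at least 20 UMIs in PT-like (left) and in EC-like cells (right), ordered by ratio, with exact 95% counting intervals and dashed lines at 2-fold. In PT-like cells Apom (1.40) and Asah2 (-1.85) mark the ends, and in EC-like cells Cers6 (1.89) and S1pr4 (-2.04).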

How the data were processed

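Kidney cell suspensions from 1 saline-treated and 1 JPI-289-treated mouse were captured with the Chromium 5′ kit v2. The authors' deposited counts are UMIs per gene and barcode, unfiltered, made per the labels with Cell Ranger 5.0.1 on mm10. The members and gene lists were chosen with earlier results of these data known, and the naming rule was set with the clusters seen.

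Barcodes were called cells by total UMIs (thresholds 3338.3 and 2618.2), then from 500 UMIs upwards by profile against empty droplets (false discovery rate 0.01), and cells with over 50% mitochondrial UMIs were removed (541 and 396). Cells of both libraries were clustered together without batch correction (scanpy 1.11.5, 2000 variable genes, 30 components, 20 neighbours, leidenalg 0.10.2 at resolution 1). A cluster took the class of its best-scoring marker list (score at least 0.75, at least 3 markers detected). If the injured PT list led, the cluster was named PT-like where the PT list came second with at least 0.75. A cluster stayed unnamed if none of its 10 leading genes was a marker of its list and its score was under 2 or its depth low. It also stayed unnamed if another class had more markers among those genes, or if the platelet or urothelium list led. Unnamed clusters held 142 and 385 cells, and doublets were kept. Raw UMIs were summed per class and library. Ratios had 0.5 UMI added to each sum and were read from 20 UMIs upwards. Intervals are Poisson for levels, Clopper-Pearson for shares and ratios, and from the ordered gene ratios for the sphingolipid list medians. A count of 0 allows up to 3 UMIs. Named genes were the members, sphingolipid genes with at least 20 UMIs and 2-fold apart (3 largest each way) or with most UMIs (3), the 3 closest profiles per member, and Havcr1. Sgpp1 in PT-like cells was named after its value was seen. The scripts were tested on simulated data. Alternatives changed the cell calling, filters, clustering, scaling, cell weights, added value and free RNA.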

Additional observations from a re-analysis of the deposited data

Results flagged for a closer look

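Cluster 18, which stayed unnamed and entered no class, held Spns2 at 335.1 CPM in the control (210 UMIs, 61 cells, interval 291 to 384) and 363 CPM in the JPI-289 library (170 UMIs, 59 cells, interval 311 to 422). It was picked out because these levels lie in cells that no comparison used, and both are above the Spns2 level of every named class. Its leading genes were Slc14a2, a urea transporter gene of the renal medulla, Bst1, Epcam, Cldn4 and Tert. In the same cluster Sphk1 stood at 70.2 CPM (44 UMIs) in the control and 237 CPM (111 UMIs) in the JPI-289 library, with intervals that did not overlap, and Sgpl1 at 33.5 and 53.4 CPM with intervals that did.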

How the results depend on the processing

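No paired analysis was possible because each condition had 1 library. Over 16 alternatives (15 planned, and free RNA taken from barcodes of 100 to 300 UMIs, chosen after seeing the data), no called ratio changed sign. Sphk1 in PT-like cells ranged from 3.41 to 3.94 apart from the split by the injured PT list. That split gave 2.04 and 3.39 but says nothing of stability, since the clusters led by the list had 23 control cells and the others 9 JPI-289 cells, each with 0 Sphk1 UMIs, so that both values are set by the 0.5 UMI added. S1pr1 in EC-like cells was -0.015 when centred on the median of all genes, 0.080 with equal weight of each cell and 0.10 with free RNA of 100 to 300 UMI barcodes subtracted, and S1pr3 in stroma-like cells was 0.58 with equal weight of each cell. The count of 2 members at least 2-fold apart in PT-like cells was the same throughout, and the sphingolipid list median there ran from 0.080 to 0.44. Of 31 other ratios, each run under 8 to 12 of the alternatives (neither the injured PT split nor the cuts on UMIs per gene), 7 were past 2-fold. All 7 kept their sign and 4 stayed past 2-fold under the 11 or 12 alternatives run for them, the exceptions being Spns2 in TAL-like cells (-1.79 to -0.80), Spns2 in DCT-CNT-like cells (-2.41 to -0.39) and Sgpl1 in macrophage-like cells (0.98 to 1.13). At a clustering resolution of 0.5 the DCT-CNT-like ratios were -1.06 for Sphk1, 1.95 for Sphk2 and 1.99 for Sgpl1, and Sphk1 there was 0.12 with at most 20% mitochondrial UMIs. With equal weight of each cell, Sphk2, Sgpl1 and Spns2 in PT-like cells were -0.50, 1.42 and 0.18, Sphk1 in EC-like cells 2.46 and Sgpl1 in CD-IC-like cells -0.66. Sgpl1 in EC-like cells ran from -5.30 to 0.62. The causes of these shifts were not tested. Some alternatives left no TAL-like or CD-IC-like class and gave no value there. Outside stroma-like cells S1pr3 had only a few UMIs in a class, as did S1pr2 outside stroma-like and macrophage-like cells. Total UMIs were 8115119 and 7335718 in PT-like cells against 863538 and 404659 in stroma-like cells, so low counts in PT-like cells go with low levels.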
